A study of Arabidopsis thaliana with 16 samples.

Results

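Mean values of 184 of 14244 measured Affymetrix ATH1 probe sets differed in opposite directions with ethylene and with the auxin indole-3-acetic acid (IAA). These means were from roots of dark-grown wild-type Arabidopsis seedlings. A probe set, the group of short probes that reports 1 transcript, was a member if its mean log2 value differed by at least 0.5 between ethylene and air in Col and by at least 0.5, with the opposite sign, between IAA and mock in Col. It also had to lie above 4 in at least 2 of the 16 arrays. Of 196 such probe sets, 12 were set aside because they belong to families outside this selection: 6 with names of the expansin, xyloglucan endotransglucosylase/hydrolase, GH3, LBD or UGT families, 5 of class III peroxidases, and AT1G64405. The ethylene-higher class (higher with ethylene, lower with IAA) held 89 probe sets, of which 47 had 1 named locus, 1 had several, 1 was the plastid gene psaB and 40 were not listed in the annotation. The IAA-higher class (lower with ethylene, higher with IAA) held 95, of which 46 had 1 named locus, 3 had several and 46 were not listed. The unlisted probe sets could not be checked against the families set aside.

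The 8 groups of 2 arrays, which the series calls biological replicates, came from 2 experiments. In the first, seedlings of the mutant aux1-7 (aux1) and of wild-type Col-0 (Col) received 10 ppm ethylene or hydrocarbon-free air for 4 h. In the second, seedlings of the mutant ein2-5 (ein2) and of Col were treated for 4 h with 1 µM IAA or with the 0.01% ethanol solvent alone (mock). All seedlings had grown for 3 days in the dark at 22 °C, and roots were cut off below the hypocotyl for RNA. Members were selected on the measured Col differences of both experiments, so the Col differences are given as a description without a test. The 8 arrays of aux1 and ein2 entered the rule only through the floor of 4 in 2 of 16 arrays. All 89 and 95 members of the 2 classes also passed that floor on the Col arrays alone. The changes tested are differences among those 8 mutant arrays. Their standard errors use 1 spread per probe set from all 16 arrays, so the Col arrays of the selection enter them.

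Ethylene is a gas perceived by membrane receptors, and its signal passes through EIN2 to transcription factors of the EIN3 family. Auxin enters root cells in part through the influx carrier AUX1 and acts on transcription by removing Aux/IAA repressors. Both hormones inhibit root elongation, and ethylene raises auxin synthesis and transport in the root tip, so many root genes respond to both in the same direction. The aux1 mutants are resistant to auxin because influx is impaired, and ein2 mutants are insensitive to ethylene. Each was used here with the hormone it does not directly block: ethylene in roots with impaired auxin uptake, and IAA in roots without an ethylene response.

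Values are GCRMA expression values on a log2 scale, in which a difference of 1 is a 2-fold change. Array medians lay between 5.874 and 6.004, and correlations between the 2 arrays of a group between 0.993 and 0.998. A change is a difference of 2 group means, given ± its moderated standard error with n = 2 arrays in each group, and limma's two-sided p-values were adjusted after Benjamini and Hochberg across the 14244 probe sets, with a call where the adjusted p was under 0.05. No named probe set stood for AUX1 or EIN2, and the lists of root markers and of shoot and seed markers had 0 named probe sets, so the mutations and the tissue label were not checked here. The 2 Col air arrays differed by at least 1 for 416 of the 14244 probe sets (2.92%), and replicate 1 was the higher of them for 325. In whole roots, fewer cells of a type and less RNA per cell cannot be told apart.

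In Col, most members of the ethylene-higher class had a smaller IAA difference than ethylene difference. The median ethylene difference was 0.97 (from 0.51 to 4.25), and the median IAA difference was -0.70 (from -1.81 to -0.50). The ethylene difference was the larger of the 2 for 65 of 89 members. It reached 2-fold for 43 members, whereas the IAA difference reached 2-fold for 13 and both did for 4. In the IAA-higher class the sizes were closer, with a median ethylene difference of -0.95 (from -2.82 to -0.50) and a median IAA difference of 1.04 (from 0.50 to 6.24). Here 46 of 95 members reached 2-fold with ethylene, 50 with IAA and 26 with both. Over all 14244 probe sets the median differences were 0.03 with ethylene and 0.00 with IAA.

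The members nearest the threshold were hardly distinct from probe sets just outside it. Inside lay AT3G12540, with 1.32 for ethylene and -0.50 for IAA, and AT2G27660, with 0.60 and -0.50. The nearest outside were GSTU27, a glutathione S-transferase gene, with 0.50 and -0.48, and AT5G06630, with 0.59 and -0.48. In the IAA-higher class, AT3G57950 (-0.51 for ethylene, 1.32 for IAA) and AT3G61160 (-0.51 and 1.46) lay just inside, and AT2G19460 (-0.60 and 0.50) and AT2G28400 (-0.50 and 0.51) just outside.

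Most of the ethylene-higher class was higher with ethylene in aux1 as well, and fewer members passed the test with IAA in ein2. In aux1 88 of 89 members were higher with ethylene than with air, with a median change of 0.93, against 47.3% of all probe sets. The rise was called for 37 of them (41.6%), against 3.28% of all probe sets, and 0 members were called lower, also at an unadjusted p under 0.05. IAA in ein2 gave less: 73 of 89 members were lower with IAA than with mock, against 52.1% of all probe sets, with a median change of -0.41. The fall was called for 7 members (7.87%), against 1.3% of all probe sets, while 27 were lower and 0 higher at an unadjusted p under 0.05. The share of all probe sets at that unadjusted level was not counted, here or below, so those counts have no background to be read against. A call in both mutants was reached by 3 members (3.37%, against 0.0632% of all probe sets), and both changes were at least 0.5 in size for 23 (25.8%, against 0.491%). The difference between the 2 mutant changes, tested directly, was called for 38 members (42.7%, against 2.18%). That test can pass where only 1 of the 2 changes is large, so its calls do not count members moved oppositely. It called AT5G53500, for instance, with changes of 1.45 in aux1 and -0.03 in ein2. Without aux1 air replicate 2 the 37 calls in aux1 were 23. The 7 calls in ein2 were 3 without ein2 IAA replicate 2 or ein2 mock replicate 1 and 4 without ein2 mock replicate 2, and 13 with the replicate number as a block. The 38 calls of the difference were 24 without ein2 mock replicate 1.

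Most of the IAA-higher class was lower with ethylene in aux1 and higher with IAA in ein2. In aux1 85 of 95 members were lower with ethylene than with air, against 52.7% of all probe sets, with a median change of -0.59. The fall was called for 29 (30.5%, against 3.8%). In ein2 91 of 95 were higher with IAA than with mock, against 47.9% of all probe sets, with a median change of 0.70. The rise was called for 28 (29.5%, against 1.9%). Against the Col direction 0 members were called in either mutant, also at an unadjusted p under 0.05. Both mutant changes were called for 12 members (12.6%, against 0.154% of all probe sets) and were at least 0.5 in size for 32 (33.7%, against 0.632%). The direct test of the difference called 47 (49.5%, against 2.77%). Here too 1 large change was enough, as for the gene CLE44, with -0.23 in aux1 and 3.41 in ein2. Of these counts, the 29 in aux1 were 14 if aux1 air replicate 2 was left out, 17 if aux1 ethylene replicate 2 was, and 18 when only the arrays of the ethylene experiment were fitted. The 28 in ein2 were 18 without ein2 IAA replicate 1 or without ein2 mock replicate 1.

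**Figure D1:**
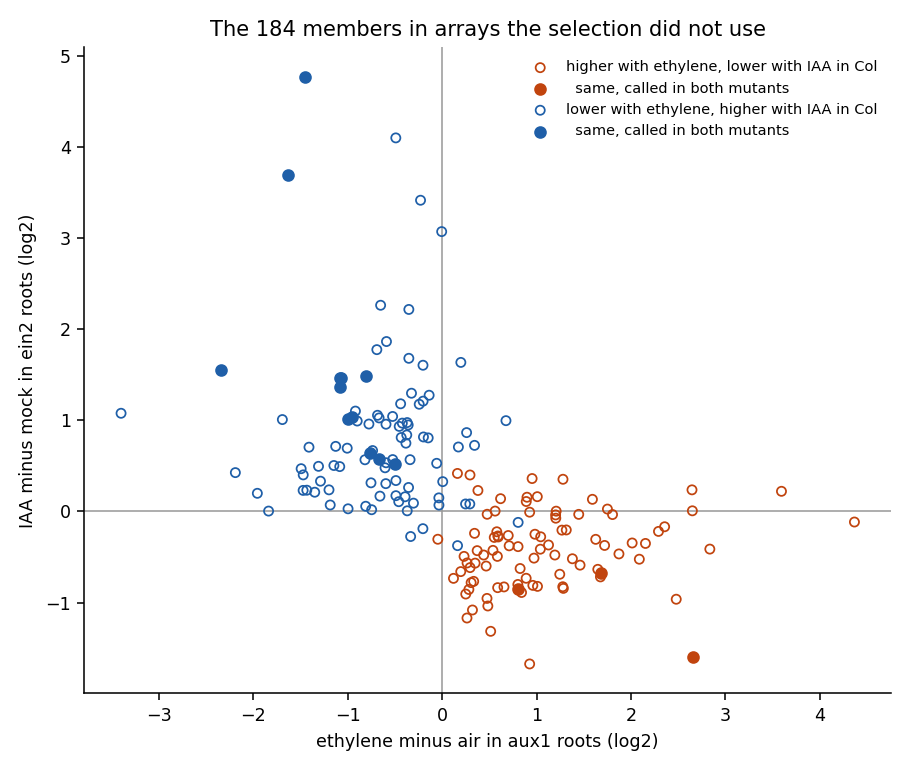
Each of the 184 members is placed by its change with ethylene in aux1 (horizontal axis, log2) and with IAA in ein2 (vertical axis, log2), in red for the ethylene-higher class and in blue for the IAA-higher class, with filled points for the 3 and 12 members called in both mutants. The red points run along the horizontal axis to 4.37 with few deep falls on the vertical axis, while the blue points spread along both axes.

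AT1G19900, which encodes a protein of the glyoxal oxidase family of extracellular copper enzymes, was the named member of the ethylene-higher class called in both mutants. In aux1 it read 11.55 and 11.38 with ethylene, against 9.04 and 8.58 in air. In Col it read 11.97 and 11.74 with ethylene, against 9.83 and 9.56 in air. No ethylene array overlapped an air array, and the rise in aux1 was 2.66 ± 0.19 (adjusted p = 8.78e-06). In ein2 it read 7.13 and 6.69 with IAA, against 8.52 and 8.49 with mock, a fall of 1.59 ± 0.19 on the log2 scale (adjusted p = 0.000545). In Col it read 7.81 and 7.80 with IAA, against 8.97 and 9.29 with mock. An unlisted probe set also passed both tests, with a rise of 1.68 ± 0.15 in aux1 (adjusted p = 5.07e-05) and a change of -0.68 ± 0.15 in ein2 (adjusted p = 0.0325). That second call was lost without ein2 IAA replicate 2, without either ein2 mock array, or when only arrays of the auxin experiment were fitted (adjusted p up to 0.223).

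Genes for acyltransferases of the family that transfers acyl groups from coenzyme A to plant metabolites were found in both classes. BAT1, in the IAA-higher class, changed by -0.49 ± 0.11 in aux1 (adjusted p = 0.0172, lost in 4 of 24 refits). In ein2 BAT1 changed by 0.34 ± 0.11 (adjusted p = 0.142). The ethylene-higher class held 2 such genes, and AT2G39980 had the largest ethylene change of that class in aux1 and in Col. In aux1 it read 12.37 and 12.31 with ethylene, against 7.99 and 7.95 in air, a rise of 4.37 ± 0.21 (adjusted p = 5.6e-07). In Col it read 12.35 and 12.51 with ethylene, against 8.43 and 7.92 in air, so the levels of aux1 lay close to those of Col. In ein2 it read 3.80 and 3.61 with IAA, against 3.92 and 3.72 with mock, a change of -0.12 ± 0.21 (adjusted p = 0.911). In Col it was far higher, at 5.68 and 6.35 with IAA, against 6.83 and 7.15 with mock. AT5G01210 rose by 2.48 ± 0.24 in aux1 (adjusted p = 7.72e-05), where ethylene arrays read 11.46 and 11.47, against 8.84 and 9.13 in air. In ein2 AT5G01210 read 7.53 and 6.80 with IAA, against 8.34 and 7.93 with mock, a change of -0.96 ± 0.24 that did not pass the test (adjusted p = 0.051). It passed in 7 of 24 alternatives, among them without ein2 IAA replicate 1 (adjusted p = 0.0169), and the adjusted p over them reached 0.314.

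Other members of the class rose with ethylene in aux1 and did not pass the test with IAA in ein2. AT5G24570 rose by 3.59 ± 0.49 in aux1 (adjusted p = 0.000908), with 8.93 and 8.83 with ethylene, against 5.97 and 4.60 in air. AT5G67020 rose by 2.84 ± 0.23 (adjusted p = 2.82e-05), with 6.75 and 7.07 with ethylene, against 4.04 and 4.11 in air. AT2G34610 rose by 2.29 ± 0.34 (adjusted p = 0.00156), with 10.16 and 10.48 with ethylene, against 7.84 and 8.22 in air. For all of these the aux1 ethylene arrays lay above both aux1 air arrays. For BGLU24, a beta-glucosidase gene, the change in aux1 was 2.15, against a difference of 0.66 in Col, and for AT5G24570 the difference in Col was 2.17. BGLU24 read 6.04 and 6.57 with ethylene in aux1, against 4.54 and 3.76 in air, and 6.65 and 6.63 with ethylene in Col, against 5.54 and 6.42 in air. Its rise in aux1 was 2.15 ± 0.29 (adjusted p = 0.000795), and its lowest arrays were those of aux1 in air. The aux1 and Col changes of these genes were not tested against each other, since the selection used the Col arrays.

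Some named members of the ethylene-higher class were grouped by role after their values had been seen. Over the class 41.6% were called in aux1 and 7.87% in ein2, against 3.28% and 1.3% of all probe sets. The role groups are too small to be set apart from the class shares. Of 5 genes for leucine-rich repeat proteins or receptor-like kinases, 2 were called in aux1 and 0 in ein2 (2 at an unadjusted p under 0.05). Those called in aux1 were AT3G46270, a receptor-like protein gene with a rise of 1.28 ± 0.29 (adjusted p = 0.0203, lost without any 1 of the 4 aux1 arrays, at most 0.125), and the leucine-rich repeat gene AT2G15320 with 1.46 ± 0.29 (adjusted p = 0.00956, lost without aux1 ethylene replicate 2 or aux1 air replicate 2). AT3G20820, another leucine-rich repeat gene, changed by 0.56 ± 0.46 in aux1 and 0.00 ± 0.46 in ein2, neither of which passed, while its differences in Col were 1.33 with ethylene and -0.94 with IAA. Its Col air arrays read 4.94 and 3.86 and its Col mock arrays 6.57 and 5.45. Of 5 genes for cell wall or apoplastic proteins, AT1G19900 was the 1 called in each mutant. AT3G22800, a gene for a leucine-rich repeat extensin of the cell wall, changed by 0.54 ± 0.29 in aux1 and -0.43 ± 0.29 in ein2, and AT4G33730, of the secreted CAP protein family, by 0.35 ± 0.39 and -0.57 ± 0.39, none of which passed.

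Of 3 genes of detoxification and glucoside metabolism, BGLU24 was the 1 called in aux1 and GSTU28, a glutathione S-transferase gene, the 1 called in ein2. GSTU28 read 7.62 and 7.29 with IAA in ein2, against 8.96 and 8.59 with mock, a fall of 1.32 ± 0.24 on the log2 scale (adjusted p = 0.0112). The call was lost without ein2 IAA replicate 2 or without ein2 mock replicate 1 (at most 0.103). In aux1 GSTU28 changed by 0.51 ± 0.24 (adjusted p = 0.272). Of 3 genes for proteins with the cysteine-rich C1 domain, AT2G27660 was called in aux1 (0.70 ± 0.14, adjusted p = 0.0104, lost without aux1 ethylene replicate 1 or aux1 air replicate 2) and none in ein2 (1 at an unadjusted p under 0.05). AT5G38700 and AT1G18290, both named for large differences in Col, changed by 0.84 ± 0.32 and 1.04 ± 0.43 in aux1 and by -0.89 ± 0.32 and -0.41 ± 0.43 in ein2, all short of the threshold. AT5G47740 rose by 1.59 ± 0.25 in aux1 (adjusted p = 0.00228) and changed by 0.13 ± 0.25 in ein2. AT4G18650, of the family of the seed dormancy gene DOG1, changed by 0.93 ± 0.30 in aux1 (adjusted p = 0.0987) and -0.01 ± 0.30 in ein2.

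Many members of the ethylene-higher class were already low in ein2 before IAA. The median of ein2 mock minus Col mock over the class was -0.82, and 23 of 89 members lay above Col. For 37 members ein2 mock lay below Col mock by at least 1. Their median IAA change was -0.12 in ein2, against a median difference of -0.75 in Col, and 1 of them was called in ein2. For the 51 members within 1 of Col the median IAA change was -0.57 in ein2, against -0.65 in Col, and 6 were called. Over all probe sets 1.3% were called lower with IAA in ein2, so 1 call among the 37 is not a result about them. The ethylene change in aux1 was larger for the 37 than for the 51, with medians of 1.21 and 0.80. In 22 members the ein2 mock mean was under 4, at the low end of the scale, and their median IAA change in ein2 was -0.04. The ein2 mock arrays enter both the level and the IAA change, and the Col mock arrays also entered the selection, so these are descriptions and no test was made. Such levels were not counted over all probe sets or over those higher with ethylene alone. They are therefore not shown to be particular to this class.

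**Figure D2:**
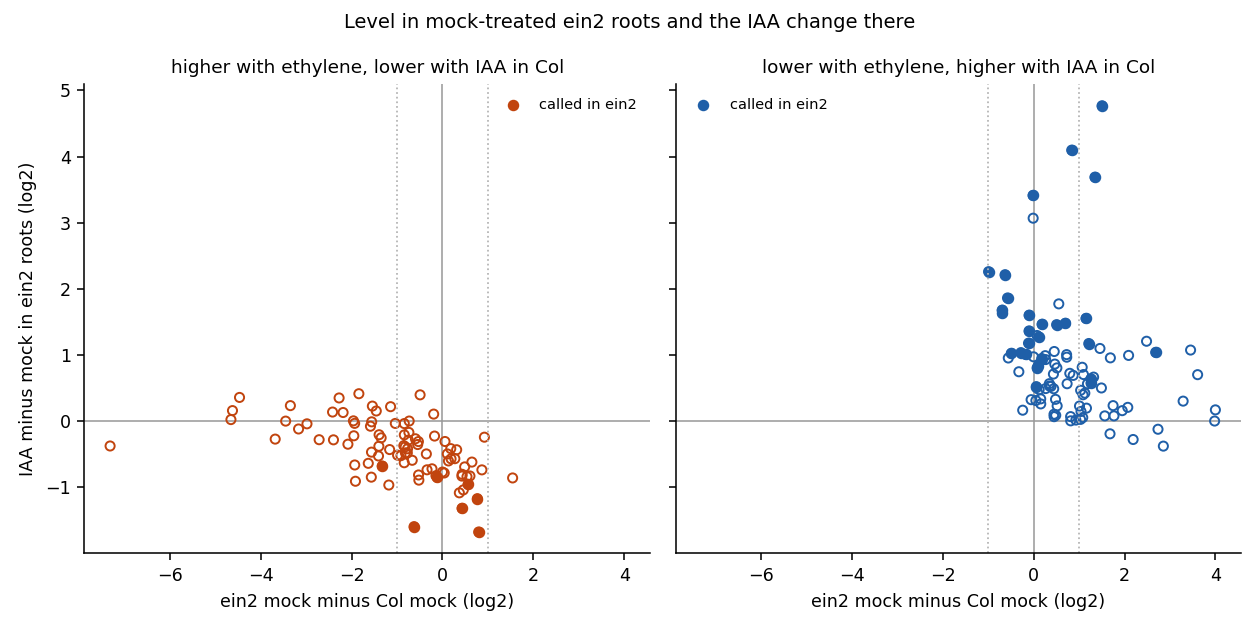
For each member the IAA change in ein2 (vertical axis, log2) is plotted against the level in mock-treated ein2 minus that in mock-treated Col (horizontal axis, log2), the ethylene-higher class on the left and the IAA-higher class on the right, with dotted lines at a difference of 1 and filled points for members called in ein2. On the left, 37 members lie left of the lower dotted line and 30 of them have an IAA change within 0.5 of 0, and on the right 38 members lie right of the upper one.

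Genes induced by low oxygen were among the members with lower levels in ein2 than in Col. AT4G10270, of the wound-responsive protein family, read 3.30 and 3.19 with IAA in ein2, against 3.25 and 3.19 with mock, and 6.41 and 7.75 with IAA in Col, against 7.87 and 7.88 with mock. AT3G10040 (HRA1), a transcription factor that attenuates the low-oxygen response, read 3.13 and 2.73 with IAA in ein2, against 2.86 and 3.01 with mock, and 4.99 and 6.27 with IAA in Col, against 6.42 and 6.35 with mock. PDC2, for a pyruvate decarboxylase of ethanol fermentation, read 5.97 and 5.82 with IAA in ein2, against 6.07 and 5.87 with mock, and 6.75 and 7.25 with IAA in Col, against 7.38 and 7.73 with mock. All 3 were thus lower in ein2 than in Col under both treatments. In aux1 PDC2 rose by 1.204 ± 0.241 (adjusted p = 0.0107, lost without aux1 ethylene replicate 1 or aux1 air replicate 2), AT4G10270 changed by 1.75 ± 0.48 (adjusted p = 0.0521) and HRA1 by 1.21 ± 0.34 (adjusted p = 0.0562). For AT4G10270 and HRA1 the second Col IAA array lay close to the mock arrays, so their IAA differences in Col rested on replicate 1. An unlisted probe set was equally low in ein2, with a rise of 2.65 ± 0.26 in aux1 (adjusted p = 0.000103) and ein2 values of 3.27 and 3.31 with IAA, against 3.07 and 3.03 with mock.

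The photosystem genes in the class showed wide replicate gaps. The plastid gene psaB, for a core subunit of photosystem I, read 8.84 and 8.05 with IAA in Col, against 10.15 and 7.96 with mock, and PSAN, for a nuclear-encoded subunit of the same complex, read 3.63 and 3.84, against 6.83 and 4.13. Their IAA differences in Col rested mainly on Col mock replicate 1, and neither gene passed a test in aux1 or ein2 (adjusted p from 0.689 to 0.969).

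In the IAA-higher class 12 members were called in both mutants, 5 of them with a named locus and 7 unlisted. AT1G67750 encodes a pectate lyase, an enzyme that cleaves the pectin of the cell wall. In aux1 it read 7.77 and 7.85 with ethylene, against 8.51 and 8.73 in air, a fall of 0.81 ± 0.16 on the log2 scale (adjusted p = 0.00973, lost without aux1 ethylene replicate 1 or aux1 air replicate 2, at most 0.0855). In ein2 it read 10.34 and 10.51 with IAA, against 8.92 and 8.97 with mock, a rise of 1.48 ± 0.16 (adjusted p = 0.000303). In Col it read 7.33 and 7.12 with ethylene, against 8.35 and 8.43 in air, and 9.87 and 10.37 with IAA, against 8.34 and 8.15 with mock. In all 4 comparisons the treated arrays of AT1G67750 lay wholly on one side of the controls.

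AT5G14690 also passed both tests. It read 6.04 and 5.98 with ethylene in aux1, against 7.00 and 7.18 in air, a fall of 1.08 ± 0.20 on the log2 scale (adjusted p = 0.00583, 0.0547 without aux1 air replicate 2). In ein2 it read 8.91 and 8.86 with IAA, against 7.38 and 7.47 with mock, a rise of 1.47 ± 0.20 (adjusted p = 0.0014). The other 3 passed both tests with less margin. AT1G74450 changed by -1.08 ± 0.26 in aux1 (adjusted p = 0.028, lost without either aux1 ethylene array or aux1 air replicate 2) and by 1.36 ± 0.26 in ein2 (adjusted p = 0.0151, lost without ein2 IAA replicate 2 or ein2 mock replicate 1). AT3G57950 changed by -1.07 ± 0.23 in aux1 (adjusted p = 0.0158, lost without aux1 ethylene replicate 2 or aux1 air replicate 1) and by 1.46 ± 0.23 in ein2 (adjusted p = 0.00483, 0.057 without ein2 mock replicate 2). AT4G18340, a gene of the glucanase family that acts on callose-type glucans, changed by -0.997 ± 0.212 in aux1 (adjusted p = 0.0146, lost without aux1 ethylene replicate 2 or aux1 air replicate 2) and by 1.01 ± 0.21 in ein2 (adjusted p = 0.0251, lost without ein2 IAA replicate 1 or ein2 mock replicate 2).

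The largest IAA differences of the class in Col were those of 2 unlisted probe sets. The larger read 9.45 and 9.04 with IAA in ein2, against 3.96 and 4.99 with mock, and 9.19 and 9.24 with IAA in Col, against 3.27 and 2.68 with mock. With ethylene it read 3.36 and 3.36 in aux1, against 4.83 and 4.79 in air, and 2.41 and 2.34 in Col, against 3.35 and 3.69 in air. Its changes were -1.45 ± 0.29 in aux1 (adjusted p = 0.00975, lost without aux1 ethylene replicate 2 or aux1 air replicate 2) and 4.77 ± 0.29 in ein2 (adjusted p = 3.43e-06). The other changed by -1.64 ± 0.28 in aux1 (adjusted p = 0.00466, 0.0583 with the arrays of the ethylene experiment alone) and by 3.69 ± 0.28 in ein2 (adjusted p = 2.1e-05).

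**Figure D3:**
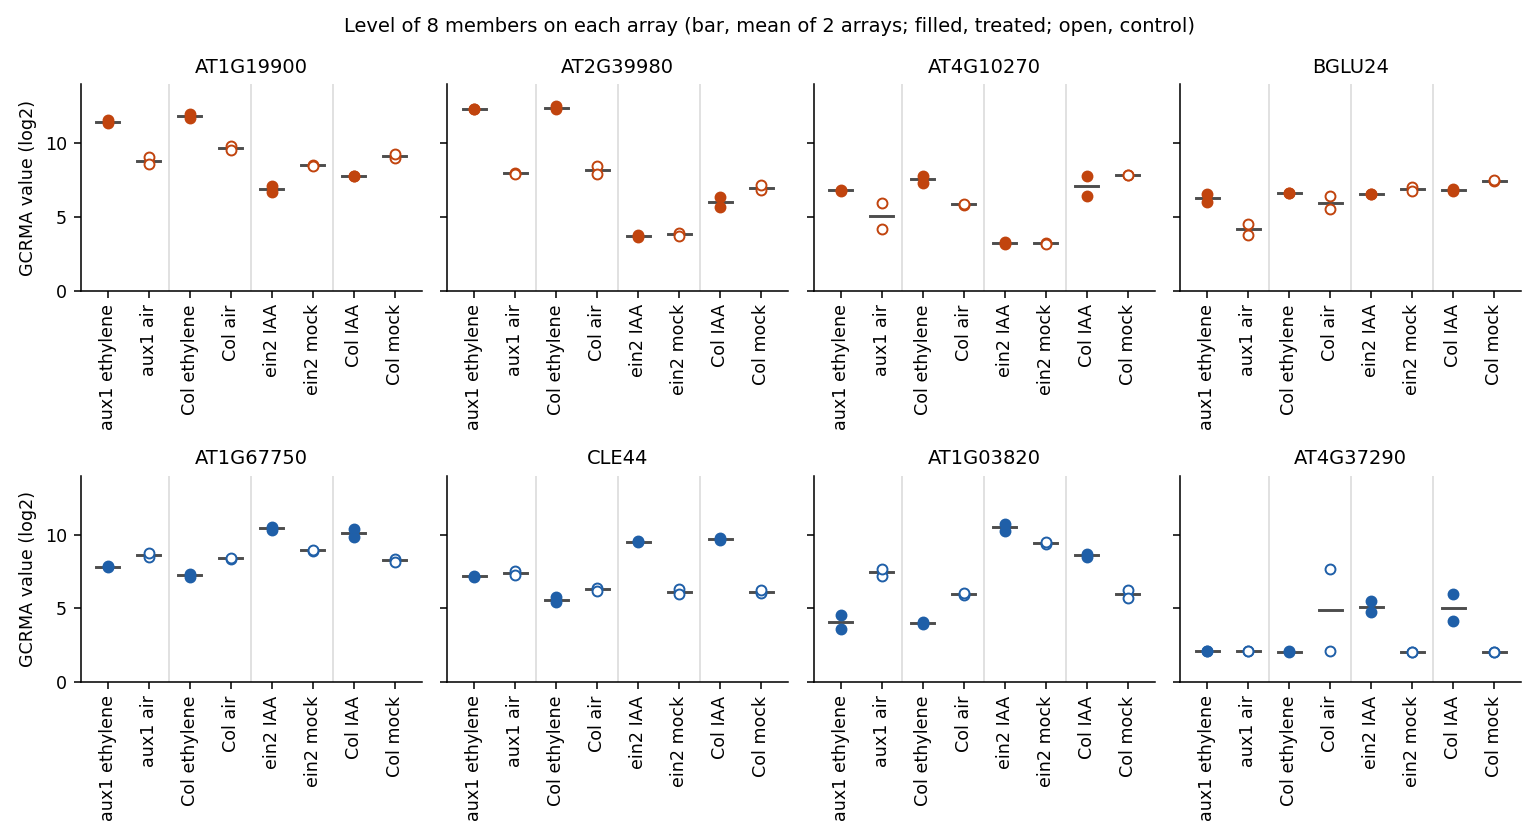
GCRMA values (vertical axis, log2) of 8 members on the 16 arrays are shown by group, with filled points for treated arrays, open points for controls and a bar at the mean of the 2 arrays, in red for the ethylene-higher class and blue for the IAA-higher class. AT2G39980 and AT4G10270 lie near 4 or lower in ein2 with and without IAA, CLE44 stands above 9 in the 4 IAA arrays, and 1 of the 2 Col air arrays of AT4G37290 stands at 7.67.

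Another set passed with IAA in ein2 and not with ethylene in aux1. CLE44 encodes the secreted peptide that maintains vascular stem cells and represses their conversion to xylem. In ein2 it read 9.55 and 9.51 with IAA, against 6.28 and 5.96 with mock, a rise of 3.41 ± 0.16 (adjusted p = 3.73e-07), and in Col 9.61 and 9.79 with IAA, against 6.04 and 6.23 with mock. In aux1 it read 7.19 and 7.15 with ethylene, against 7.53 and 7.27 in air, a change of -0.23 ± 0.16 (adjusted p = 0.496). In Col it read 5.40 and 5.76 with ethylene, against 6.39 and 6.20 in air. The CLE44 levels of aux1 lay above those of Col under both gas treatments.

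AT4G37295 rose by 4.10 ± 0.36 in ein2 (adjusted p = 6.64e-05), with 8.44 and 8.46 with IAA, against 3.90 and 4.81 with mock. In aux1 it changed by -0.49 ± 0.36 (adjusted p = 0.533) at levels of 3.20 to 3.80, and its Col air arrays read 5.23 and 3.91. AT5G67430, of the GNAT acetyltransferase family, rose by 2.22 ± 0.31 in ein2 (adjusted p = 0.00199) and changed by -0.35 ± 0.31 in aux1. AT3G61160, for a kinase of the shaggy (GSK3) family, rose by 1.68 ± 0.19 (adjusted p = 0.000402) and changed by -0.35 ± 0.19 in aux1. AT2G36220 rose by 1.60 ± 0.16 (adjusted p = 0.000166) and changed by -0.20 ± 0.16 in aux1. AT1G49450, for a protein with WD40 repeats, rose by 1.63 ± 0.33 (adjusted p = 0.0196, lost without either ein2 IAA array or ein2 mock replicate 1) and changed by 0.20 ± 0.33 in aux1, the opposite sign to its Col difference. For each of these 6 genes both ein2 IAA arrays lay above both ein2 mock arrays.

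A further set passed with ethylene in aux1 and not with IAA in ein2. AT1G03820 read 3.58 and 4.53 with ethylene in aux1, against 7.21 and 7.70 in air, and 3.96 and 4.09 with ethylene in Col, against 5.91 and 6.03 in air. Its fall in aux1 was 3.40 ± 0.29 on the log2 scale (adjusted p = 3.44e-05), the largest among the members. In ein2 it read 10.27 and 10.72 with IAA, against 9.37 and 9.47 with mock, a change of 1.08 ± 0.29 (adjusted p = 0.0747), and both ein2 groups lay above Col, which read 8.71 and 8.48 with IAA, against 6.23 and 5.70 with mock. NAI1, a transcription factor gene required for the ER bodies that store beta-glucosidases, read 7.15 and 7.08 with ethylene in aux1, against 8.38 and 8.43 in air, a fall of 1.29 ± 0.15 on the log2 scale (adjusted p = 0.000269). In ein2 NAI1 changed by 0.33 ± 0.15 (adjusted p = 0.328). AT1G66800, of a family of NAD(P)-binding reductases, fell by 1.47 ± 0.15 in aux1 on the log2 scale (adjusted p = 0.000128) and changed by 0.40 ± 0.15 in ein2.

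A further 3 genes of this set rested on fewer arrays. AT4G22610, of the lipid-transfer protein family, changed by -2.19 ± 0.43 in aux1 (adjusted p = 0.0102, lost without aux1 ethylene replicate 1 or aux1 air replicate 2). AT1G73340, a cytochrome P450 gene, changed by -1.96 ± 0.40 (adjusted p = 0.0127, lost without aux1 ethylene replicate 2 or aux1 air replicate 2). AT2G40480 changed by -1.15 ± 0.26 (adjusted p = 0.0215, lost without aux1 ethylene replicate 1 or either aux1 air array). Their changes in ein2 were 0.43 ± 0.43, 0.20 ± 0.40 and 0.50 ± 0.26, and none passed. With no filter on low values the aux1 calls of AT3G46270, AT1G74450 and AT2G40480 and the ein2 calls of AT4G18340 and AT1G49450 were also lost. With the arrays of the ethylene experiment alone, those of AT1G74450, AT3G57950, AT4G22610, BAT1 and PDC2 in aux1 were.

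The 2 Col air arrays lay far apart for many members of the IAA-higher class. These arrays entered the selection, which can itself favour members with 1 high air array, so the gaps are a description without a test. The 2 Col air arrays differed by at least 1 for 34 of the 95 members, and replicate 1 was the higher for 33 of them. In the ethylene-higher class this gap was found for 16 of 89 members, 12 with replicate 1 higher. The widest pairs of Col air arrays among its named members were those of 4 genes. AT3G12540 read 6.932 and 4.954, and AT5G24570 read 6.539 and 5.055. AT4G33730 read 9.280 and 7.991, and AT5G38700 read 6.442 and 5.236. For AT3G12540 the Col ethylene arrays, at 7.725 and 6.801, overlapped those in air. For the 34, the median ethylene change was -0.35 in aux1, against a median difference of -1.44 in Col, and 1 was called in aux1. For the other 61 the medians were -0.67 in aux1 and -0.84 in Col, and 28 were called. Over all probe sets 3.8% were called lower with ethylene in aux1, and 1 call among the 34 is near that share. A wide gap in Col air also enlarged the standard error used in aux1, because 1 spread was estimated per probe set over all arrays: its median was 0.66 for the 34 and 0.22 for the 61. The median IAA change in ein2 was 0.70 for the 34 and 0.72 for the 61. There 2 and 26 were called, against 1.9% of all probe sets called higher. When the rule was reapplied without Col air replicate 1, 70 probe sets qualified in this class, 59 of them members.

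**Figure D4:**
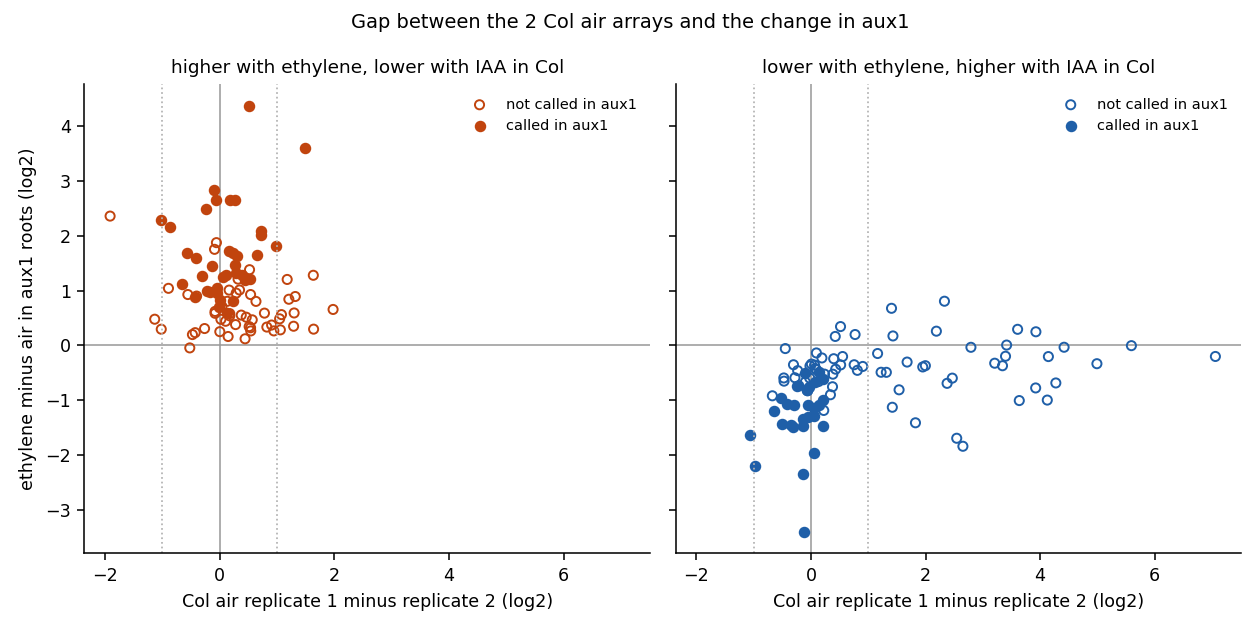
The ethylene change in aux1 (vertical axis, log2) is plotted for each member against the value on Col air replicate 1 minus that on replicate 2 (horizontal axis, log2), with the ethylene-higher class on the left, the IAA-higher class on the right, dotted lines at a gap of 1 and filled points for members called in aux1. In the IAA-higher class 33 members lie right of the upper dotted line, and the 28 calls in aux1 with a gap under 1 in size lie between -0.97 and 0.22 on the horizontal axis.

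AT4G37290, for the precursor of a secreted immune peptide, shows the pattern most plainly. In aux1 it read 2.11 and 2.07 with ethylene, against 2.08 and 2.12 in air, while in Col it read 2.07 and 2.04 with ethylene, against 7.67 and 2.08 in air. With IAA it read 4.72 and 5.47 in ein2, against 2.01 and 2.04 with mock, and 5.98 and 4.12 in Col, against 2.05 and 2.03 with mock. The IAA arrays lay above the mock arrays by more than 2 in both genotypes, but the change in ein2 of 3.07 ± 1.25 did not pass (adjusted p = 0.275), with a standard error that includes the Col air gap. AT4G37290 and AT4G37295 are neighbouring genes with no other protein-coding gene between them, and both were high with IAA in ein2 and in Col. AT1G74450 and AT1G74460, a gene for a lipase of the GDSL family, have 1 gene between them. AT1G74460 changed by -0.49 ± 0.35 in aux1 and 0.17 ± 0.35 in ein2, neither of which passed.

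The same Col air array was the high one for 5 further genes. The legume-lectin gene AT3G16530 read 5.13 and 4.91 with ethylene in Col, against 9.43 and 4.44 in air. AT3G54150 read 2.97 and 3.34 with ethylene, against 7.37 and 2.95 in air, and AT2G41730 read 5.13 and 4.97, against 9.35 and 5.95. AT2G32190 read 2.40 and 2.44 with ethylene, against 6.37 and 2.23 in air, and the calmodulin-like gene AT5G39670 read 2.55 and 2.87, against 5.75 and 2.55. None of these 5 passed in aux1 or ein2, and their aux1 changes lay between -0.33 and -0.03. A list of 38 loci induced early by touch and wounding had 8 named and 6 tested probe sets, none of these a member. Of the 6, 4 were higher by at least 1 on Col air replicate 1 than on replicate 2, against 325 of all 14244 probe sets. The median gap of the 6 was 1.75, with STZ, a stress-induced zinc finger gene, at 7.68 and 4.48 and the calmodulin-like gene CML38 at 5.77 and 3.74. WRKY53 (5.98 and 5.79) and PUB22 (9.54 and 9.51), also of the 6, had no such gap. A gap of 1.57 was also found for BHLH101, the 1 tested gene of a list of nutrient uptake genes. With mock in Col, STZ read 5.3 and 5.29, and CML38 read 5.68 and 4.53, so its first mock array was nearly as high. None of the 6 was called in aux1 or ein2 (1 and 0 at an unadjusted p under 0.05). The part of this array in the members' ethylene differences was not tested.

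Other named members of the IAA-higher class with large differences in Col were called in neither mutant. AT1G07690 read 3.13 and 3.15 with ethylene in Col, against 5.44 and 5.46 in air, yet changed by -0.60 ± 0.32 in aux1 (adjusted p = 0.367) and 0.96 ± 0.32 in ein2 (adjusted p = 0.173). AT1G70470 changed by -0.92 ± 0.35 and 1.10 ± 0.35 (adjusted p = 0.166 and 0.142). The serine carboxypeptidase gene scpl28 changed by -1.41 ± 0.40 and 0.70 ± 0.40 (adjusted p = 0.0598 and 0.492), with Col air arrays of 4.87 and 3.05. AT5G66780 changed by -0.69 ± 0.62 and 1.77 ± 0.62 with Col air arrays of 5.99 and 3.62, and AT3G09405, for a pectin acetylesterase, by -0.46 ± 0.51 and 0.93 ± 0.51, and none of these passed.

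Members of the IAA-higher class were likewise grouped by role after the values had been seen. Over this class 30.5% were called in aux1 and 29.5% in ein2, against 3.8% and 1.9% of all probe sets. These groups too are small to be set apart from the class shares. The class held 4 genes for enzymes of pectin and glucans, of which 2 were called in aux1 and 2 in ein2, AT1G67750 and AT4G18340 in both. AT3G09405 and the polygalacturonase gene AT3G59850 were called in neither, and the changes of AT3G59850 were -1.19 ± 0.46 and 0.07 ± 0.46. Of 3 genes for secreted signalling peptides, CLE44 was the 1 called, in ein2. AT3G10930, a further peptide gene, changed by -0.81 ± 0.36 in aux1 and 0.06 ± 0.36 in ein2. None of 3 protease genes was called in either mutant (2 in aux1 and 1 in ein2 at an unadjusted p under 0.05), and none of 2 GDSL lipase genes was, at either level. The GDSL and GNAT families were also found in the ethylene-higher class. There the GDSL lipase gene AT3G62280 changed by 0.23 ± 0.17 in aux1 and -0.49 ± 0.17 in ein2, and neither passed. AT4G28030, of the GNAT family, rose by 1.315 ± 0.267 in aux1 (adjusted p = 0.0114, lost in 2 of 24 refits) and changed by -0.20 ± 0.27 in ein2. Of 5 genes for signalling proteins, NAI1 was called in aux1, and AT3G61160 and the ubiquitin ligase gene AT5G09800 (1.18 ± 0.18, adjusted p = 0.00366) in ein2. AT4G11230, for an NADPH oxidase, was called in neither, with changes of -0.66 ± 0.23 and 0.17 ± 0.23.

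Untreated levels of the IAA-higher class ran opposite to those of the ethylene-higher class in ein2. The median of ein2 mock minus Col mock was 0.70, with 77 of 95 members above Col. For 38 members ein2 mock lay above Col mock by at least 1, with a median IAA change of 0.45 in ein2, against 1.09 in Col, and 7 called. For the 57 within 1 of Col the median IAA change was 0.86 in ein2, against 0.91 in Col, and 21 were called. Over all probe sets 1.9% were called higher with IAA in ein2. The median over the class was 8.10 with IAA in ein2, against 7.09 with mock in ein2, and 7.68 with IAA in Col, against 6.18 with mock in Col. Between aux1 and Col the medians were closer, with 0.03 for aux1 air minus Col air in this class and -0.13 in the ethylene-higher class. These genotype differences share the Col arrays of the selection, were not counted over all probe sets and were not tested.

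The members' shares of calls in the mutants can be set beside those of probe sets that differed in Col without opposition. In aux1 41.6% of the ethylene-higher class were called higher, next to 38.1% of 700 probe sets higher with ethylene and within 0.5 with IAA in Col, and 37.1% of 143 higher with both hormones. In ein2 7.87% of that class were called lower, next to 11.3% of 408 probe sets lower with IAA and within 0.5 with ethylene, and 27.5% of 306 lower with both hormones. Of the IAA-higher class 30.5% were called lower in aux1, next to 36.1% of 648 probe sets lower with ethylene and within 0.5 with IAA, and 28.4% of the 306. In ein2 29.5% of that class were called higher, next to 20.8% of 703 probe sets higher with IAA and within 0.5 with ethylene, and 26.6% of the 143. These shares are descriptions, and the classes differ in the size of their Col differences.

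No member with a named locus belonged to 12 lists of 259 loci, among them Aux/IAA repressors, auxin transport, ethylene signalling, root hair, cell cycle and nutrient uptake genes, compiled with earlier results of these data known. Unlisted members could not be checked. Only 28 of those loci had a named probe set and 16 a tested one. Members were 184 of the 14244 probe sets, so their absence from these few loci says little. Of the 16, 2 were called higher with ethylene in aux1: RTE1, a regulator of ethylene receptor function (2.74 ± 0.18, adjusted p = 4.99e-06), and WAG2, a kinase gene of auxin transport (1.57 ± 0.18, adjusted p = 0.000243). The mitotic kinase gene AUR1 was called lower (-0.51 ± 0.13, adjusted p = 0.0352), and none of the 16 was called with IAA in ein2 (1 at an unadjusted p under 0.05). Over all probe sets 3.28% were called higher and 3.8% lower in aux1, and 1.9% higher and 1.3% lower in ein2. At those shares a count of 0 in ein2 among 16 genes says little.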

How the data were processed

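The authors deposited 1 table of GCRMA values per probe set for 16 ATH1 arrays. Per the submitters' processing notes the tool was GCRMA, and its version and settings are not given in the sources used here. The deposited values run from 1.24 to 15.40 and were used as log2 expression, a scale read from the values. Whether the arrays of both experiments were normalized together is not stated. Array data carry no count depth, so the 2 arrays per group limit the precision.

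Of 22810 probe sets, 64 controls were left out, and 14244 of the other 22746 lay above 4 in at least 2 arrays. Probe sets were named through GEO's platform annotation and RefSeq gene IDs (TAIR10.1 table, names only): 13415 had 1 locus, 503 several, 98 a name without a locus code and 8730 were unlisted.

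Group means were fitted to the 16 arrays with limma 3.58.1 (lmFit, eBayes; 8 residual and 3.36 prior degrees of freedom) under R 4.3.3, and the fit was tested on simulated data. Tests were made on ethylene minus air in aux1, IAA minus mock in ein2, and the difference of these changes, whose arrays entered the selection only through the floor and share its estimate of spread. The members, the lists and the role groups were chosen with earlier results of these data known. Named genes were members with 1 locus: per class the 12 with the largest smaller Col difference, up to 6 called in both mutants, up to 6 called in 1 mutant, those nearest the threshold on both sides, and 4 with the largest SD between Col air arrays. Genes named for a role and the unlisted probe sets were chosen after their values were seen. The alternatives tried were other normalizations (median centring, quantiles), other floors (none, or 6), an eBayes intensity trend, a fit per experiment, 1 probe set per locus, the replicate number as a block, a size limit, other thresholds and the omission of single arrays. The labels give replicate numbers without saying that they pair samples.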

Additional observations from a re-analysis of the deposited data

Results flagged for a closer look

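In AT5G24570, a member of the ethylene-higher class, both IAA arrays of ein2 (3.91 and 3.69) lay above both mock arrays (3.48 and 3.68), a change of 0.22, while in Col both IAA arrays (3.68 and 4.19) lay below both mock arrays (4.30 and 5.15), a difference of -0.79. The gene is listed because its arrays were ordered in opposite ways in the 2 genotypes. In ein2 the nearest IAA and mock arrays read 3.695 and 3.684, and the change had a standard error of 0.49. An opposite movement in ein2 is therefore not shown. The change in ein2 did not pass the limma test (adjusted p = 0.926), and the difference between the genotypes was not tested because the Col arrays entered the selection. All ein2 values of AT5G24570 lay under 4.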

How the results depend on the processing

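Of 338 recomputed counts, 290 stayed within 1.5 times the reported value. With thresholds of 0.75 and 1, the ethylene-higher class held 24 and 4 probe sets and the IAA-higher class 44 and 26. With each array left out in turn, the rule found 70 to 148 and 70 to 117 probe sets. The 70 of the ethylene-higher class, without Col IAA replicate 1, shared 48 with the 89, and the 148, without Col mock replicate 1, shared 83. Counts of called members with each array left out ran from 23 to 41 and 14 to 34 in aux1, from 3 to 9 and 18 to 35 in ein2, and from 24 to 42 and 34 to 53 for the difference (ethylene-higher class, then IAA-higher class). Over all probe sets the same ranges were 290 to 501 (higher, 467 reported) and 231 to 559 (lower, 541) in aux1, 143 to 287 (higher, 271) and 56 to 198 (lower, 185) in ein2, and 192 to 339 (higher, 311) and 226 to 402 (lower, 394) for the difference. With arrays of the same experiment, the calls in aux1 were 18 in the IAA-higher class, and 273 higher and 243 lower over all probe sets. With a size of at least 1, they were 19 in that class and 245 and 179 over all, and in ein2 4 in the ethylene-higher class and 155 higher and 57 lower over all. Fewer arrays or a stricter criterion define these settings. Replicate numbers are not stated to pair samples, and deviations of same-numbered arrays correlated at 0.275 to 0.414 within the 4 treatment comparisons. The replicate block moved the calls in ein2 to 13 in the ethylene-higher class and 342 lower over all, the lower calls in aux1 to 840, and those of the difference to 495 higher and 597 lower. For these shifts the cause was not tested. Added after the data had been seen, the 73 and 61 members with Col air arrays within 1 had 35 and 28 calls in aux1 and 7 and 26 in ein2. For 46 named genes, 2108 recomputed values kept their side of the threshold, 45 gained a call and 39 lost one. No called change turned its sign, while 14 of 92 results, all uncalled as reported, took both signs. Of the calls among members, 19 of 37 and 11 of 29 in aux1, and 2 of 7 and 16 of 28 in ein2, held in every refit.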
